A study of Mus musculus with 10 samples.

Results

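Autonomic neurons release short peptides beside acetylcholine or noradrenaline, and the genes of 9 such peptides were followed here in sorted *Sox10*+ neural crest-derived progenitors (NCPs) of the mouse pelvic ganglia and in total embryo. They are *Cartpt*, *Npy*, *Vip*, *Gal*, *Sst*, *Penk*, *Tac1*, *Adcyap1* and *Calca*, listed by symbol and each read from the probe set that is annotated to that gene alone (the highest by mean over all arrays where there are several). Of the 9, 8 were measured, each by 1 probe set, among 19937 genes in all, and *Calca* is not analysed here. Only *Cartpt* and *Sst* stood above almost all genes of similar total embryo level in NCPs. *Cartpt* was 2.75-fold higher in NCPs than in total embryo and *Sst* 1.93-fold, where most genes of their level were lower or did not pass the test. The changes of the other 6 lay between the 5 and 95 percentiles of such genes, and *Penk*, whose mean fell, was as high on 1 of the 3 NCP arrays as in total embryo.

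The NCP group is 3 Affymetrix mouse Gene 1.0 ST arrays, each of another RNA isolate, from mice that carry the C3Fe.Tg(Sox10-HIST2H2BE/Venus)ASout transgene, a histone fused to the Venus fluorescent protein under *Sox10* control. The cells were sorted by fluorescence at E13, each isolate a pool of dissected tissue from several fetuses, and early neurons can still carry the histone-bound label, so the sort can hold more than progenitors. The total embryo group is 7 arrays of 2 RNA isolates of whole embryos (3 arrays of 1 isolate and 4 of the other), whose age and genotype the labels do not give, and the labels name no treatment for either group. The comparison asks which transcripts are enriched in the progenitors of the pelvic ganglia relative to the embryo as a whole. In bulk RNA such as this, fewer cells of a type and less RNA per cell cannot be told apart.

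Each of these genes encodes a precursor protein that is cut in the secretory pathway into 1 or more active peptides, which are stored in dense-core vesicles and act on G protein-coupled receptors. *Vip*, *Npy*, *Gal*, *Penk* and *Cartpt* mark subsets of postganglionic neurons, *Npy* chiefly noradrenergic vasoconstrictor neurons and *Vip* chiefly cholinergic vasodilator neurons. *Adcyap1* (PACAP) is best known from preganglionic and sensory fibres, and *Tac1* (substance P) and *Calca* (CGRP) from sensory fibres. *Sst* encodes somatostatin, which inhibits the release of hormones and transmitters. The transcription of several of these genes is known to respond to cyclic AMP, through an element bound by CREB that was first described in the somatostatin promoter.

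The promoter windows of the members are shown for that element, a choice made with the values known, so the match is no test. Of the members with a promoter entry, the complete element was found in the pair that stood apart. The windows (RefSeq, build GRCm38.p6) run 300 bases, from 250 before to 50 after an annotated start, and 7 of the 8 measured genes had an entry (*Penk* had none). Capitals mark the element. The *Cartpt* window is chr13:99900634-99900933 and the *Sst* window chr16:23890795-23891094, both on the minus strand, and the shorter stretches are chr10:5639124-5639160 for *Vip* and chr17:93198911-93198947 for *Adcyap1*, both on the plus strand.
Cartpt: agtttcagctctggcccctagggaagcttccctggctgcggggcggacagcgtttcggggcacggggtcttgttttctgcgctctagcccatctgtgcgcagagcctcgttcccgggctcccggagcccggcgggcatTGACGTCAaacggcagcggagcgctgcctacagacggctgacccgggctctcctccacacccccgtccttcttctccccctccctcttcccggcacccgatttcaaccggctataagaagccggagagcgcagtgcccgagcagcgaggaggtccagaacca
Sst: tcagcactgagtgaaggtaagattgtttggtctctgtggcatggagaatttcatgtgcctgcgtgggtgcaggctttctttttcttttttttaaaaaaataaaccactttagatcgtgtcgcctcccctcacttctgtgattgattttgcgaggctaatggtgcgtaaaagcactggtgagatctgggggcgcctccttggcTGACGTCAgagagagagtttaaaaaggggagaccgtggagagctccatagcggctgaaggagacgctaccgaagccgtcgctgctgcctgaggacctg
Vip: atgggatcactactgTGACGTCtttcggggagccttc
Adcyap1: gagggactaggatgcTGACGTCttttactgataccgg

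The complete element, TGACGTCA, reads the same on both strands and was searched on both. It lies at bases -112 to -105 from the start in *Cartpt* and -48 to -41 in *Sst*, and in 588 of 32851 mouse promoter windows of the same length (1.79%). *Vip* (bases -79 to -73) and *Adcyap1* (bases -91 to -85) hold its first 7 bases, TGACGTC, on the strand of the gene, letters that are part of the complete element and occur on either strand in 3.21% of all windows. Counted from another annotated start of *Adcyap1*, the same letters lie at bases -242 to -236. The first 5 bases alone, TGACG, are in 6 of the 7 genes, *Npy* being the exception. They are in 20.8% of all windows and in 23.05% of all genes with a window. The motif was chosen after the sequences and the values were seen. The median log2 fold change was -0.26 over the 424 measured genes whose window holds the complete element. Over the 15189 measured genes whose window lacks it the median was 0.05. In NCPs 18.4% of the former and 34.2% of the latter were higher, and 39.6% and 31.7% were lower. After the level adjustment described below 9.91% and 8.03% were higher, and 7.78% and 8.78% lower. The match is a description of these promoters, and binding to them was not measured.

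**Figure D1:**
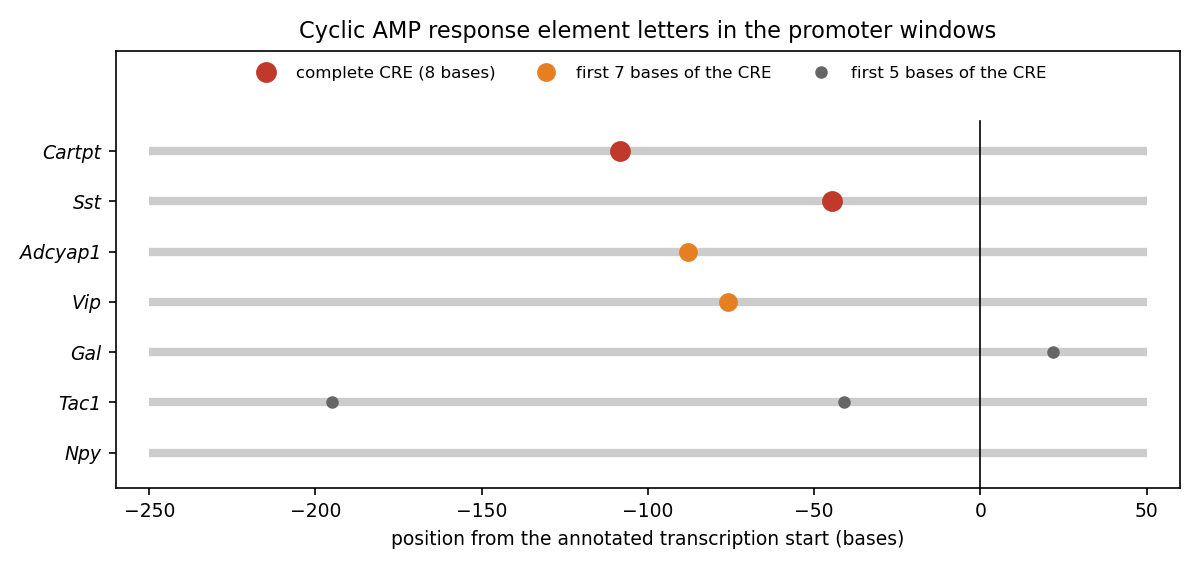
Positions of the cyclic AMP response element (CRE) and its parts in 1 promoter window of each of 7 neuropeptide genes, in bases from the annotated start (horizontal axis). Complete elements are seen only in *Cartpt* and *Sst*, the first 7 bases in *Adcyap1* and *Vip*, only TGACG in *Gal* and *Tac1*, and none of these letters in *Npy*.

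The arrays of the NCP group differ from those of total embryo as whole arrays, which bears on every value below. The standard deviation (SD) of the probe sets on an array was 0.97 to 1.13 in NCPs and 1.78 to 1.91 in total embryo, and NCP arrays correlated with each other at only 0.582 to 0.677, against 0.954 to 0.987 among total embryo arrays. Between NCP and total embryo arrays the correlation was 0.459 to 0.651, a range that overlaps the one among NCP arrays. Genes of chemosensory receptors, olfactory and vomeronasal (1190), are largely silent outside the nose, and their 95th percentile on each array was taken as a floor. It was 6.65 to 6.88 on the NCP arrays and 5.32 to 5.50 on the total embryo arrays. Housekeeping genes lay above these receptors, median to median, by 3.46, 0.71 and 4.41 on NCP arrays 1, 2 and 3, against 6.69 to 7.06 on the total embryo arrays, so that NCP array 2 held the narrowest range. Genes that were dim in total embryo were mostly higher in NCPs and bright ones mostly lower. Each change was therefore also set against its neighbours, the 2.51% of all genes nearest to it in total embryo level, and was computed again after each array's trend on that level was subtracted (level adjustment). Centring the arrays on the olfactory and vomeronasal receptors instead shifts every log2 fold change by -1.69, so that increases smaller than 1.69 become decreases under it, those of all members included. All 3 NCP arrays share the date in their titles with total embryo replicate 1 alone, so date and group can be told apart only through that array.

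In limma (adjusted p under 0.05 over all probe sets tested), 5 of the 8 neuropeptide genes were higher in NCPs, where 34.8% of all genes were, and 2 were lower, where 31.0% of all genes were. The higher genes were *Cartpt*, *Adcyap1*, *Vip*, *Gal* and *Sst*, the lower ones *Npy* and *Penk*, and *Tac1* did not pass. Values on the 3 NCP arrays were each higher than all 7 in total embryo for 3 of them (*Cartpt*, *Adcyap1* and *Vip*), against 28.0% of all genes, and each lower for 0, against 24.6%. The median log2 fold change of the 8 genes was 0.77 (0.08 over all genes). After level adjustment 2 were higher (*Cartpt* and *Sst*), where 8.24% of all genes were, and 1 was lower (*Vip*), where 8.69% were, with a median of 0.12 over the 8. These fits take the 7 total embryo arrays as separate samples, though values within an RNA isolate were correlated (0.675, estimated in limma). The intervals and SDs below rest partly on repeat arrays of 2 isolates, so the intervals can be too narrow. Averaged per RNA isolate, the 7 total embryo arrays count as 2 samples. *Cartpt* (adjusted p = 0.00960 in limma) and *Adcyap1* (adjusted p = 0.0316) were then still higher, and the other 5 genes did not pass. In that setting 16.3% of all genes were higher and 16.9% lower. With arrays centred on olfactory and vomeronasal receptors 0 were higher and 6 lower, where 2.88% and 83.4% of all genes were.

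**Figure D2:**
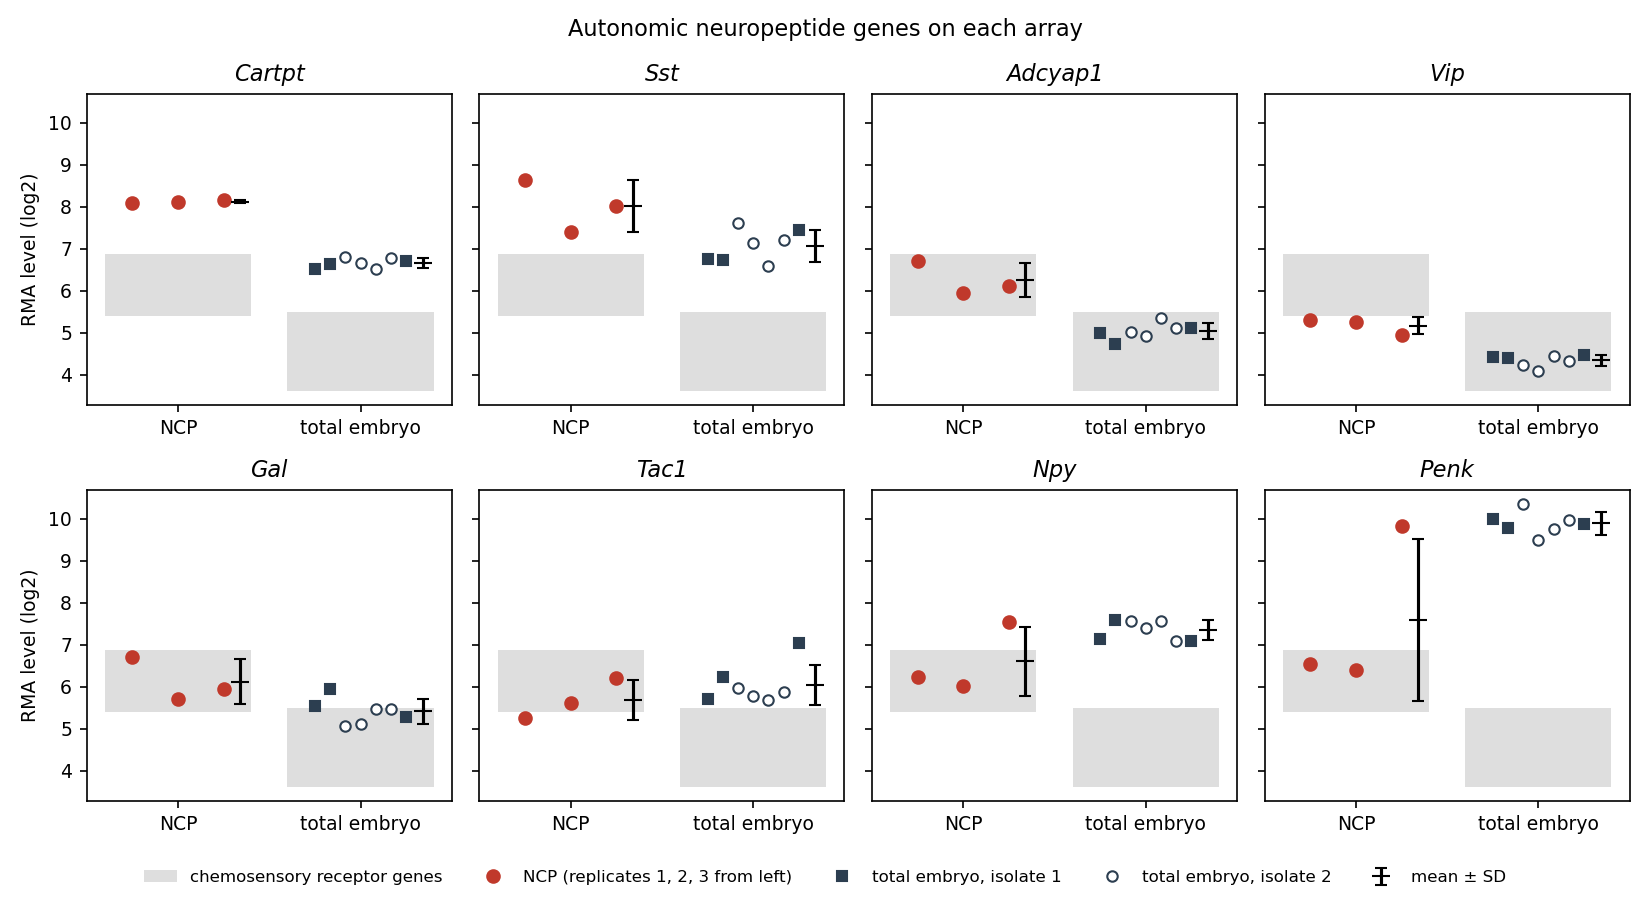
RMA level (log2, vertical axis) of the 8 neuropeptide genes on each of 3 NCP arrays (left, red) and 7 total embryo arrays (right, squares for 1 isolate and circles for the other), with mean ± SD. Grey bands run from the lowest median to the highest 95th percentile of olfactory and vomeronasal receptor genes on the arrays of a group. The 3 *Cartpt* points lie together near 8.1, well above the band and above total embryo, *Penk* is at total embryo level on NCP array 3 alone, and *Vip* and *Adcyap1* lie within or below the band in both groups.

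*Cartpt* encodes the precursor of the CART peptides, which regulate feeding and mark subsets of autonomic and enteric neurons (GRCm38.p6 chr13:99898483-99910179). Its RMA level was 8.09, 8.11 and 8.17 on NCP arrays 1, 2 and 3, against 6.51 to 6.79 in total embryo (median 6.66). The groups did not overlap, and all 10 values lay above the 95th percentile of olfactory and vomeronasal receptors on their own array. The mean was 8.12 ± 0.04 (SD, n = 3) in NCPs and 6.66 ± 0.12 (SD, n = 7) in total embryo. This is a log2 fold change of 1.46 (standard error 0.14, 95% interval 1.15 to 1.77, adjusted p = 2.14e-06 in limma, Benjamini-Hochberg). The standard error was 0.24 with the RNA isolate as a random block (adjusted p = 3.24e-04 in limma). With arrays averaged per isolate it was 0.28 (adjusted p = 0.00960 in limma). The spread of the NCP arrays was small for these libraries. Only 0.497% of all genes had a narrower NCP range than the 0.08 of *Cartpt*. Among its neighbours in total embryo level, whose median change was -0.34 and of which 5.19% were higher and 33.9% lower, *Cartpt* stood at the 99.8 percentile.

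Relative to the median of those neighbours *Cartpt* was higher by 1.73, 1.85 and 1.83 on NCP arrays 1, 2 and 3, so the excess was of like size on each, the narrow array 2 included. The housekeeping median was 8.92, 6.33 and 9.80 on these arrays, and the *Cartpt* level did not follow it. The reason for the even *Cartpt* level was not tested. After level adjustment the log2 fold change of *Cartpt* was 1.76 (95% interval 1.46 to 2.06, adjusted p = 1.1e-05 in limma). With arrays averaged per RNA isolate as well, *Cartpt* did not pass, where only 4 of all 19937 genes did. Without level adjustment its change ranged from 1.44 to 1.48 without any 1 of the NCP arrays and was 2.36 after cyclic loess. Against the single total embryo array of the same title date it was 1.60 and did not pass (adjusted p = 0.119), where only 0.622% of all genes were higher. It turned to -0.23 (adjusted p = 0.213) with arrays centred on olfactory and vomeronasal receptor genes, a shift that moved the median of all genes to -1.61.

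*Sst* encodes somatostatin (chr16:23889573-23891342). Its level was 8.64, 7.40 and 8.02 on NCP arrays 1, 2 and 3, against 6.59 to 7.62 in total embryo (median 7.15). NCP array 2 lay inside the total embryo range and the other two above it, and all 10 values were above the 95th percentile of olfactory and vomeronasal receptors on their array. The mean was 8.02 ± 0.62 (SD, n = 3) in NCPs and 7.07 ± 0.39 (SD, n = 7) in total embryo, which is a log2 fold change of 0.95 (standard error 0.28, 95% interval 0.34 to 1.57, adjusted p = 0.00966 from limma). Of its neighbours 2.40% were higher and 63.3% lower, with a median of -0.71, and *Sst* stood at the 99.4 percentile. The excess over the neighbours was 2.22, 1.12 and 1.60 on NCP arrays 1, 2 and 3, above the neighbours' median on each. After level adjustment the log2 fold change was 1.62 (95% interval 1.04 to 2.21, adjusted p = 0.00151). With arrays averaged per RNA isolate as well, *Sst* did not pass, where only 4 of all 19937 genes did. The unadjusted change was smaller without NCP array 1 and did not pass (0.64, adjusted p = 0.0650), nor did it with arrays averaged per RNA isolate (0.96, adjusted p = 0.110).

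**Figure D3:**
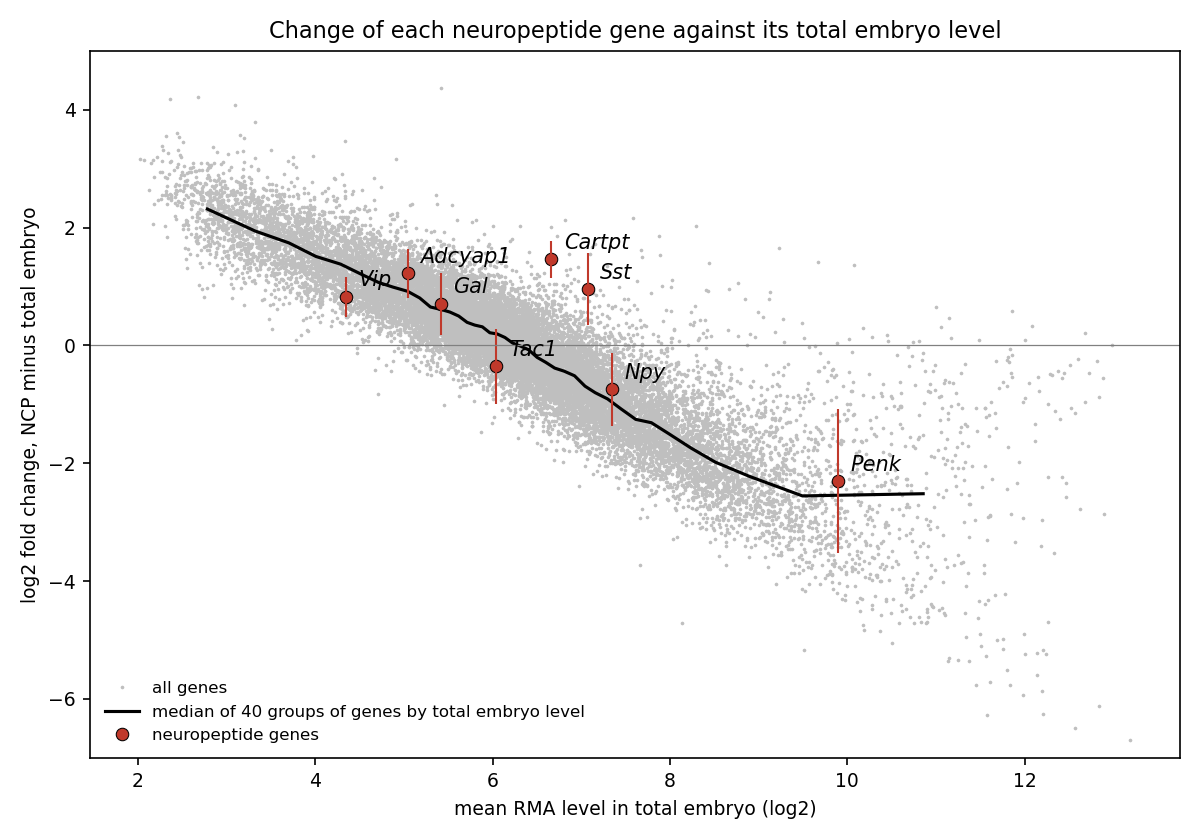
Log2 fold change (NCP minus total embryo, vertical axis) against mean RMA level in total embryo (log2, horizontal axis) for all 19937 genes (grey), with the medians of genes grouped by level (black line) and the 8 neuropeptide genes (red, 95% intervals from limma). *Cartpt* and *Sst* lie far above the line, at the 99.8 and 99.4 percentiles of their neighbours, while *Npy* and *Penk* are lower in NCPs but close to the line.

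*Adcyap1* encodes PACAP, named for its stimulation of adenylate cyclase (chr17:93198245-93206541). Its level was 6.71, 5.95 and 6.12 on NCP arrays 1, 2 and 3, against 4.74 to 5.36 in total embryo (median 5.03). The groups did not overlap, yet 0 of the 10 values passed the 95th percentile of olfactory and vomeronasal receptors on their array. Its log2 fold change was 1.22 (standard error 0.19, 95% interval 0.80 to 1.64, adjusted p = 1.19e-04 from limma), where 80.8% of its neighbours were also higher and their median was 0.91. *Adcyap1* stood at the 77.2 percentile of them, and after level adjustment the change was 0.34 (95% interval -0.10 to 0.77, adjusted p = 0.267).

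*Vip* encodes vasoactive intestinal peptide, a vasodilator and relaxant of smooth muscle (chr10:5639193-5647617). It was at 5.31, 5.26 and 4.94 on NCP arrays 1, 2 and 3, against 4.09 to 4.48 in total embryo (median 4.41). Every NCP array lay above every total embryo array (log2 fold change 0.83, 95% interval 0.49 to 1.17, adjusted p = 4.74e-04 from limma), but the NCP values lay at the 25.3 to 42.5 percentile of olfactory and vomeronasal receptors, below their median. Of its neighbours 95.8% were higher, with a median of 1.36, and *Vip* stood at the 12.8 percentile. Its direction depended on the scaling. The log2 fold change was -0.50 after level adjustment (adjusted p = 0.0346), -0.58 after cyclic loess (adjusted p = 0.0108), -0.35 after quantile normalization again (adjusted p = 0.140) and -0.86 with arrays centred on olfactory and vomeronasal receptors (adjusted p = 2.32e-04). At levels like these the array does not show whether *Vip* was expressed in either group.

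*Gal* encodes galanin, which is induced in many neurons after axon injury (chr19:3409915-3414544). Its level was 6.72, 5.70 and 5.95 on NCP arrays 1, 2 and 3, against 5.07 to 5.96 in total embryo (median 5.47). Only NCP array 1 lay outside the total embryo range, and 0 of 3 NCP values but 4 of 7 total embryo values passed the 95th percentile of olfactory and vomeronasal receptors on their array. The log2 fold change was 0.71 (standard error 0.24, 95% interval 0.18 to 1.23, adjusted p = 0.0210 from limma), and 0.41 without NCP array 1 (adjusted p = 0.132). Its neighbours had a median of 0.61 and 59.3% of them were higher, and after level adjustment its change was 0.07 (adjusted p = 0.868).

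*Tac1* encodes the precursor of substance P and neurokinin A (chr6:7555061-7562978). Its level was 5.26, 5.61 and 6.20 on NCP arrays 1, 2 and 3, against 5.70 to 7.04 in total embryo (median 5.87). The groups overlapped and the difference was not called (log2 fold change -0.35, 95% interval -0.99 to 0.28, adjusted p = 0.303 from limma). All 7 total embryo values but 0 of the 3 NCP values lay above the 95th percentile of olfactory and vomeronasal receptors on their array. At the 7.78 percentile, *Tac1* stood near the low end of its neighbours, and after level adjustment its change was -0.55 (95% interval -1.17 to 0.06, adjusted p = 0.196).

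*Npy* encodes neuropeptide Y, the cotransmitter of sympathetic vasoconstrictor neurons (chr6:49822710-49829507). Its level was 6.24, 6.02 and 7.55 on NCP arrays 1, 2 and 3, against 7.08 to 7.59 in total embryo (median 7.40). NCP array 3 lay within the total embryo range and arrays 1 and 2 below it, and array 3 alone passed the 95th percentile of olfactory and vomeronasal receptors. The mean was 6.60 ± 0.82 (SD, n = 3) in NCPs and 7.35 ± 0.23 (SD, n = 7) in total embryo, which is a log2 fold change of -0.74 (standard error 0.28, 95% interval -1.36 to -0.13, adjusted p = 0.0339 from limma). The call was lost without NCP array 1 (-0.56), without NCP array 2 (-0.45) and without any 1 of total embryo replicates 2, 3, 4 and 5 (-0.74 to -0.70), and the change was -1.22 without NCP array 3. Of its neighbours 79.4% were lower, with a median of -0.98, and after level adjustment the change of *Npy* was 0.18 (95% interval -0.41 to 0.76, adjusted p = 0.693).

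*Penk* encodes proenkephalin, the source of the enkephalins, which are opioid peptides (chr4:4133536-4138815). Its level was 6.54, 6.40 and 9.82 on NCP arrays 1, 2 and 3, against 9.49 to 10.36 in total embryo (median 9.87). Arrays 1 and 2 lay far below the total embryo range, within the range of olfactory and vomeronasal receptors, and array 3 lay inside it. The mean was 7.59 ± 1.93 (SD, n = 3) in NCPs and 9.89 ± 0.27 (SD, n = 7) in total embryo, which is a log2 fold change of -2.30 (standard error 0.56, 95% interval -3.52 to -1.09, adjusted p = 0.00286 from limma). It was -3.42 without NCP array 3, and -1.78 and -1.71 without arrays 1 and 2. With arrays averaged per RNA isolate it did not pass (adjusted p = 0.109).

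A decrease of this size was common for genes as bright as *Penk* in total embryo. Of these neighbours 92.0% were lower in NCPs, with a median of -2.69, and after level adjustment the change of *Penk* was 0.05 (95% interval -0.94 to 1.03, adjusted p = 0.959). The difference between the NCP isolates was not common. *Penk* on NCP array 3 exceeded its mean on arrays 1 and 2 by 3.35, which ranks 19 of 19937 genes, while the median of its neighbours was 7.06, 6.68 and 7.44 on arrays 1, 2 and 3, and their median excess was 0.47. After level adjustment *Penk* was at 8.75, 9.42 and 11.62 on NCP arrays 1, 2 and 3, against 9.505 to 10.41 in total embryo, so that arrays 1 and 2 lay below and array 3 above the total embryo range. *Npy* shared the pattern at a smaller size (1.42, the 96.5 percentile of all genes). The autonomic neuron markers had no common order over the NCP arrays. Of the 7, *Phox2a* (6.03, 5.56 and 7.53 on arrays 1, 2 and 3), *Th* (5.68, 5.68 and 6.46) and *Prph* (6.57, 7.28 and 7.61) were highest on array 3, *Isl1* (8.05, 6.59 and 7.45), *Elavl4* (7.03, 5.97 and 6.002) and *Hand2* (6.95, 6.48 and 6.82) on array 1, and *Dbh* (5.86, 6.75 and 6.42) on array 2. *Sox10* was at 7.95, 7.14 and 7.60. The mesenchyme markers were *Dcn*, *Lum*, *Postn*, *Col1a1*, *Col3a1*, *Pdgfra* and *Pdgfrb*, a list added after the values were seen. Their mean level was 6.55, 5.96 and 6.31 on NCP arrays 1, 2 and 3, against 8.75 to 9.06 in total embryo. Of the 7 genes 0 were higher in NCPs, where 34.8% of all genes were. The part of other cells in the *Penk* signal was not tested.

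The genes whose pattern over the 10 arrays was most like that of a member were of varied kinds. For *Cartpt* they were *Lrrc10b*, *Cd209d* and *Rbm8a2*. They lay at a root mean square difference of 0.119 to 0.128 log2 units from it after each gene's total embryo mean was subtracted. The likeness is in the change as measured and not in level. Their NCP means lay at the 97.6, 48.4 and 0.42 percentiles of olfactory and vomeronasal receptors. After level adjustment their changes were 0.77, -0.10 and -1.11, unlike that of *Cartpt* (1.76). For *Penk* they were *Psmc5* (a proteasome subunit, 0.196), *Arpp19* (a phosphatase regulator, 0.269) and *Ndufs4* (a respiratory chain subunit, 0.283). Like *Penk*, these genes were high on NCP array 3 and low on arrays 1 and 2, as *Psmc5* shows with 7.64, 7.22 and 10.52.

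*Sox10*, the gene whose control elements drive the sorted label, was higher in NCPs (log2 fold change 1.002, adjusted p = 2.78e-04 from limma, and 1.22 after level adjustment, also past the threshold). Of 7 neural crest and Schwann precursor markers measured, 2 were higher (*Sox10* and *Foxd3*) and 3 lower (*Fabp7*, *Ednrb* and *Erbb3*). Beside this and the marker counts that follow, 34.8% of all genes were higher and 31.0% lower. After level adjustment these shares were 8.24% and 8.69%. Of 7 autonomic neuron markers 6 were higher, with a median of 0.58, and after level adjustment *Isl1* (1.13) and *Prph* (0.77) were. Markers of other cells that make such peptides moved in both directions. Of 5 pancreatic endocrine markers, a cell type that also makes somatostatin, *Gcg* (0.56) and *Iapp* (0.89) were higher and *Ins2* (-1.08) was lower, and after level adjustment *Gcg* alone was called, as higher (1.19, adjusted p = 0.00096). Like *Sst*, *Gcg* passed the 95th percentile of olfactory and vomeronasal receptors on all 3 NCP and all 7 total embryo arrays, and it stood at the 98.2 percentile of its neighbours. The mean of the 5 was 6.34, 6.80 and 6.40 on NCP arrays 1, 2 and 3, against 6.30 to 6.68 in total embryo. Of 3 sensory neuron markers *Avil* (1.14) and *Pou4f1* (0.64) were higher and *Runx1* (-0.63) lower. Their list means were 6.30, 6.47 and 5.92, against 5.75 to 5.94. After level adjustment 0 sensory neuron markers were higher and 0 lower. Of 5 chromaffin cell markers 3 were higher and *Chga* (-0.49) was lower, with list means of 6.05, 5.79 and 6.46, against 5.59 to 5.94. Among the higher ones *Th* and *Dbh* are also counted as autonomic neuron markers. After level adjustment 0 chromaffin cell markers were higher and *Chga* alone was lower (-0.62). Of 4 brain markers *Emx2* (0.96) was higher and *Neurod6* (-0.95) and *Lhx2* (-0.47) were lower, with list means of 6.37, 5.62 and 5.72, against 5.85 to 6.08. After level adjustment *Neurod6* alone was called, as lower (-0.98). The part of these cells in the *Cartpt* and *Sst* values was not tested. All 5 smooth muscle markers and 5 of 6 epithelium markers were lower, and 1 and 3 of them after level adjustment.

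Beyond the 8 genes, 40 of 41 other neuropeptide precursor genes were measured, of which 19 were higher and 2 lower (median log2 fold change 0.44), against 34.8% and 31.0% of all genes. With arrays averaged per RNA isolate 9 were higher and 0 lower, against 16.3% and 16.9% of all genes. With arrays centred on olfactory and vomeronasal receptors 0 were higher and 34 lower, against 2.88% and 83.4% of all genes. The largest increases were those of *Nms* (1.93), *Cck* (1.69) and *Nmu* (1.69), which encode neuromedin S, cholecystokinin and neuromedin U. They passed the 95th percentile of olfactory and vomeronasal receptors on 0 of 7 total embryo arrays and on 1, 2 and 0 of the 3 NCP arrays, so the sizes cannot be read exactly. After level adjustment each of these remained higher (0.83, 0.87 and 0.65), among 6 higher and 4 lower, against 8.24% and 8.69% of all genes. *Nms* stood at 6.10, 6.39 and 7.44 on NCP arrays 1, 2 and 3, against a mean of 4.71 in total embryo, and *Cck* at 6.35, 7.19 and 6.92 against 5.13. The genes that fell were *Gnrh1* (-1.18), the precursor of gonadotropin-releasing hormone, and *Prlh* (-0.63).

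Receptor genes for peptides of these precursors, CART excepted, were measured at 24 of 24 listed, and 16 were higher and 2 lower (median 0.91), against 34.8% and 31.0% of all genes. With arrays averaged per RNA isolate 8 were higher and 1 lower, against 16.3% and 16.9% of all genes. With arrays centred on olfactory and vomeronasal receptors 1 was higher and 15 lower, against 2.88% and 83.4% of all genes. After level adjustment 3 were higher and 1 lower (median 0.02), against 8.24% and 8.69% of all genes. These counts were 0 and 0 when level adjustment was combined with averaging per isolate, where 4 of all 19937 genes were called. Of the 3 higher after level adjustment, 2 are receptors for somatostatin, whose own gene was higher in the same libraries. *Sstr1* was at 6.97, 6.93 and 7.04 on NCP arrays 1, 2 and 3, against a mean of 4.67 ± 0.31 (SD, n = 7) in total embryo. It passed the 95th percentile of olfactory and vomeronasal receptors on all 3 NCP arrays and on 0 of 7 total embryo arrays. The size of its log2 fold change (2.31, and 1.19 after level adjustment) can therefore not be read exactly. *Sstr3* was at 7.01, 7.45 and 6.998, against a mean of 5.73 ± 0.17 (SD, n = 7), a log2 fold change of 1.42, and 1.001 after level adjustment. The other somatostatin receptors gave 0.09 (*Sstr2*), 0.03 (*Sstr4*) and 0.58 (*Sstr5*), of which the last passed, though not after level adjustment.

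The third receptor gene that was higher after level adjustment was *Adcyap1r1*, which encodes the PACAP-selective receptor PAC1. Its level was 7.31, 7.47 and 6.66 on NCP arrays 1, 2 and 3, against 6.58 ± 0.13 (SD, n = 7) in total embryo, which is a log2 fold change of 0.57 (adjusted p = 0.0167 from limma) and 0.80 after level adjustment. The receptors that PACAP shares with VIP did not pass (*Vipr1* 0.31, *Vipr2* 0.17). Increases of the *Npy* receptors *Npy2r* (1.63) and *Npy6r* (1.62), of *Galr1* (1.58), of the opioid receptors *Oprm1* (1.33) and *Oprk1* (1.17) and of the tachykinin receptors *Tacr1*, *Tacr2* and *Tacr3* (1.096, 1.03 and 1.59) were not called after level adjustment. The genes that fell encode the parts of the CGRP receptor, *Calcrl* (-2.97, and -1.08 and still called after level adjustment), which is also the adrenomedullin receptor of vessels, and *Ramp1* (-0.90).

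**Figure D4:**
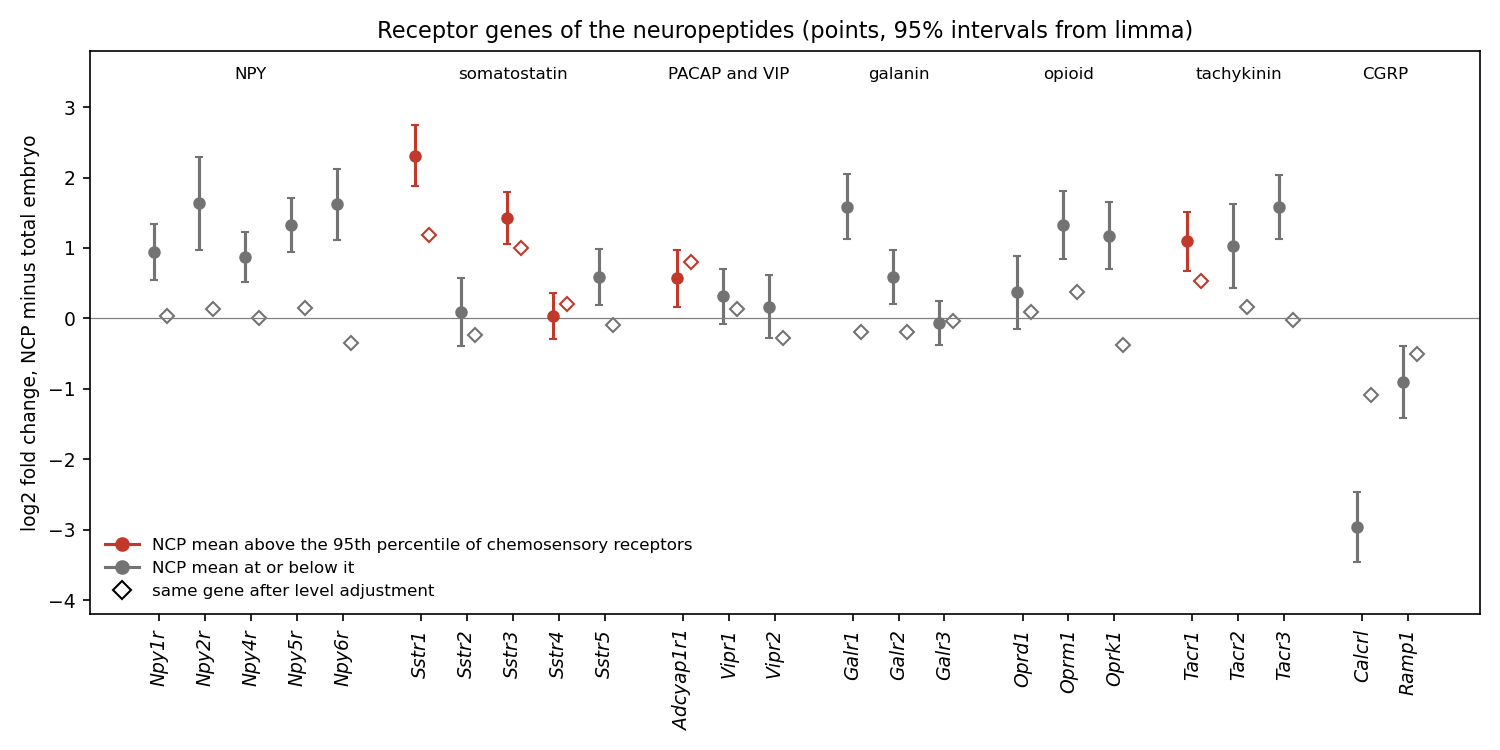
Log2 fold change (NCP minus total embryo, vertical axis) of 24 receptor genes grouped by peptide, with 95% intervals from limma (circles) and the value after level adjustment (diamonds). Red marks genes whose NCP mean passed the 95th percentile of olfactory and vomeronasal receptors. *Sstr1*, *Sstr3* and *Adcyap1r1* keep diamonds well above 0, and most others fall to near 0.

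Of 12 genes measured that process the precursors, 1 was higher and 7 lower (median -1.02), against 34.8% and 31.0% of all genes. With arrays averaged per RNA isolate 1 was higher and 4 lower, against 16.3% and 16.9% of all genes. After level adjustment 1 was higher and 3 lower (median -0.23), against 8.24% and 8.69% of all genes. The increase as measured was that of *Pcsk1* (1.28), a proprotein convertase of neuroendocrine cells, which was not called after level adjustment (0.42, adjusted p = 0.265) and passed the 95th percentile of olfactory and vomeronasal receptors on 1 of 3 NCP arrays. *Scg5*, whose product 7B2 is the chaperone of the convertase PC2, did not pass as measured (8.44, 7.20 and 7.85 on NCP arrays 1, 2 and 3, against 7.69 ± 0.17 in total embryo) but was higher after level adjustment (1.36, adjusted p = 0.0011). The largest decreases were those of *Ctsl* (-2.90), *Cpd* (-2.86) and *Cpe* (-1.57), a protease and a pair of carboxypeptidases. The genes lower after level adjustment were *Cpd* (-0.90), *Pcsk5* (-0.80) and *Pcsk6* (-1.02), while *Ctsl* (-0.49) was not called. *Cpe* was at 7.58, 5.69 and 7.88, against 8.62 ± 0.26, and its change was 0.32 after level adjustment and not called (adjusted p = 0.514 in limma).

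Of 13 peptide breakdown genes 0 were higher in limma and 9 lower (median -1.35), against 34.8% and 31.0% of all genes, led by the aminopeptidase *Anpep* (-3.31), the insulin-degrading enzyme *Ide* (-2.50) and the aminopeptidase *Npepps* (-2.38). After level adjustment 3 were lower and 0 higher (median -0.35), against 8.69% and 8.24% of all genes. Those lower were *Anpep* (-1.03), *Dpp4* (-0.66) and *Ece2* (-1.06), while *Ide* (-0.63) and *Npepps* (-0.41) were not called.

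**Figure D5:**
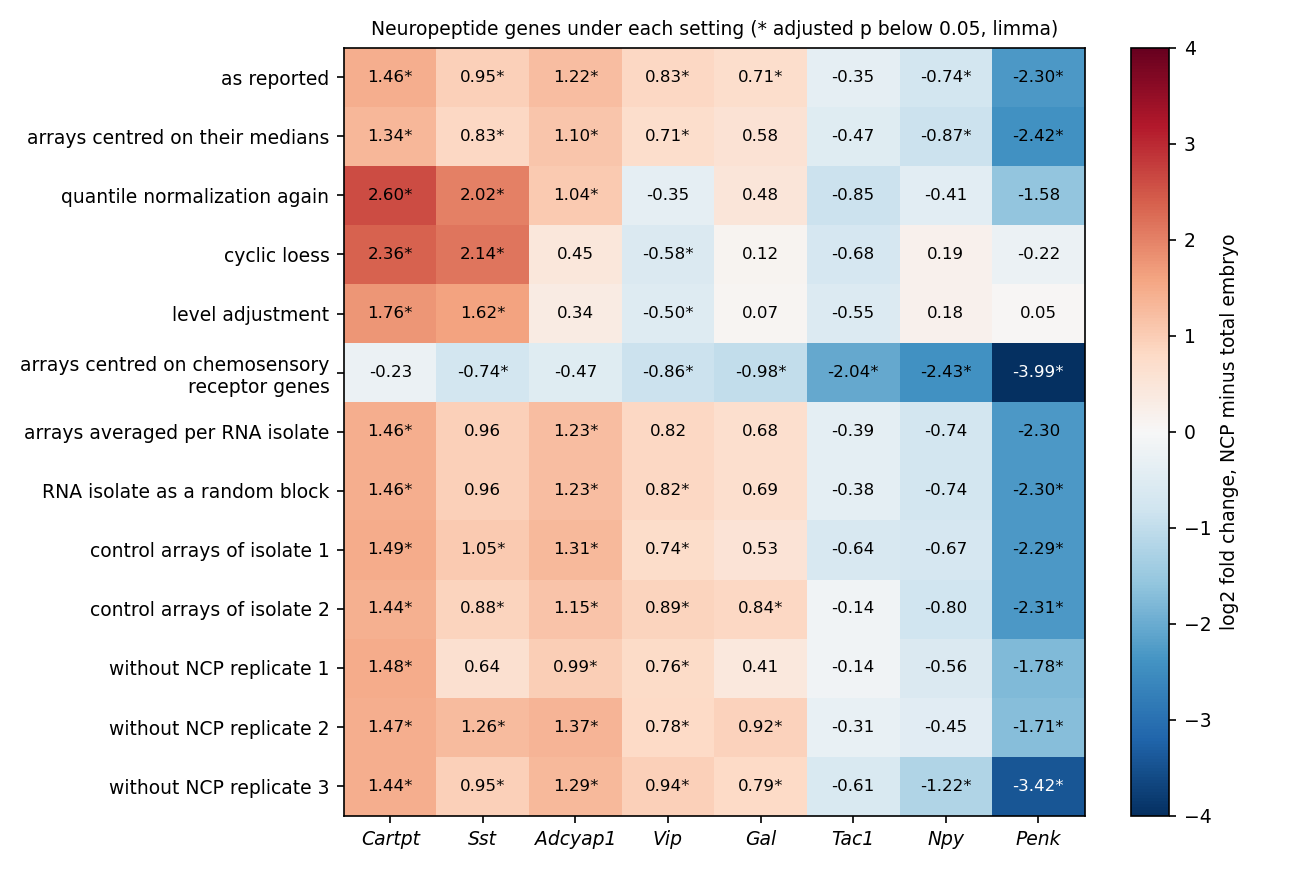
Log2 fold change (NCP minus total embryo) of the 8 neuropeptide genes as reported (top row) and under 12 other settings, with red for higher and blue for lower in NCPs and an asterisk for an adjusted p below 0.05 in limma. *Cartpt* stays between 1.34 and 2.597 in all rows but that of arrays centred on olfactory and vomeronasal receptors (-0.23), a row in which *Sst* (-0.74), *Gal* (-0.98) and *Adcyap1* (-0.47) change sign too. *Vip* and *Npy* change sign between rows, and *Penk* ranges from -3.99 to 0.05.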

How the data were processed

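Gene 1.0 ST arrays of 3 NCP and 7 total embryo samples were analysed from the deposited log2 values, which the authors computed with RMA (robust Multi-Array Average) using Affymetrix Expression Console 1.1. It is not stated which arrays were normalized together. Per the methods, nanogram amounts of RNA were amplified before hybridization, whereas the labels name another kit and a wider dissection. Values were used as deposited.

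The table has 34760 probe sets, and without 6568 controls 28192 were tested with limma 3.58.1 in R 4.3.3 (prior of 4.65 degrees of freedom, Benjamini-Hochberg over all of them). Of these, 21640 carry 1 symbol, 1321 several and 5231 none. A gene is its single-symbol probe set with the highest mean, and 19854 of 19937 genes matched RefSeq names (GRCm38.p6). Level adjustment subtracts each array's lowess trend (span 0.3) on the total embryo mean. The fits were tested on simulated arrays with independent noise, which does not cover shared RNA isolates or arrays of unequal range. Repeat arrays share RNA isolates, so p-values rest on a spread that is partly technical, and the number of arrays limits the precision.

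Named are the members, up to 3 increases and 3 decreases of each list, the members' receptors, the markers and the 3 genes most like *Cartpt* and *Penk*. *Scg5* was chosen after its values were seen. The members and lists were chosen with earlier results of these data known. Alternatives changed the scaling, control arrays, isolate handling, prior, filters and single arrays. Python 3.11.15 drew the figures.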

Additional observations from a re-analysis of the deposited data

Results flagged for a closer look

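*Tac1* on total embryo replicate 7 was at 7.04, where the other 6 total embryo arrays lay between 5.70 and 6.24. The gap to the nearest array was 0.597 of the group's range, above the 95% limit of 0.568 for 7 values (Dixon's test). Chance flags about 1 in 20 groups, and this was the only such value among the 8 genes in total embryo. The groups of 3 NCP arrays are too small for this test.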

How the results depend on the processing

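Counts of neuropeptide genes higher and lower (5 and 2 as reported) are given with the shares of all genes higher and lower. They were 2 and 0 with arrays averaged per RNA isolate (16.3% and 16.9%). With the isolate as a random block they were 3 and 1 (24% and 23%), as with array weights (25% and 23.5%). They were 4 and 1 with control arrays of isolate 1 (22.5% and 21.9%) or the label series as a block (29.6% and 26.7%). With control arrays of isolate 2 they were 5 and 1 (29.6% and 27.5%), as in an unmoderated test (34.1% and 29.7%). Quantiles normalized again gave 3 and 0 (19.2% and 22.6%). Cyclic loess gave 2 and 1 (14.6% and 17.1%), and so did level adjustment (8.24% and 8.69%). Arrays centred on their medians gave 4 and 2 (30.7% and 34.3%). Those centred on olfactory and vomeronasal receptors gave 0 and 6 (2.88% and 83.4%). A filter on dim probe sets left out *Vip* and *Adcyap1* and gave 3 and 2 (14.8% and 41.5%). At an adjusted p of 0.01 they were 4 and 1 (27.8% and 25.3%). The control of the same title date is 1 array, so no count is given. Leaving out 1 array gave 3 to 5 higher and 1 to 2 lower. Without NCP replicate 1 the counts were 3 and 1 (34.1% and 30.9% of all genes). Further settings were chosen after the data were seen. NCP arrays 1 and 3 with control arrays of isolate 1 gave 4 and 0 (23.5% and 21.8% of all genes). Level adjustment with arrays averaged per RNA isolate gave 0 and 0, where 4 genes of all 19937 were called. Directions that turned were, with arrays centred on olfactory and vomeronasal receptors, those of *Cartpt* (-0.23), *Sst* (-0.74), *Adcyap1* (-0.47), *Vip* (-0.86) and *Gal* (-0.98). After cyclic loess *Npy* (0.19) and *Vip* (-0.58) turned, after quantile normalization again *Vip* (-0.35), after level adjustment *Npy* (0.18), *Penk* (0.047) and *Vip* (-0.50), and with isolates averaged as well *Npy* (0.18), *Penk* (0.045) and *Vip* (-0.51). The cause of these turns was not tested. *Cartpt* kept its direction and call in 26 of 29 settings, *Adcyap1* in 23 of 28, *Sst* and *Penk* in 22 of 29, *Vip* in 21 of 28, *Gal* in 14 of 29 and *Npy* in 9 of 29. Taken against neighbours by the mean of both groups, the excess of *Cartpt* was 2.97 and that of *Sst* 2.57, against 1.80 and 1.66 as reported. No paired analysis was possible because the replicate numbers are in accession order and pair no samples. The range above background is narrower on the NCP arrays than on the total embryo arrays, most of all on NCP array 2, which limits how large a decrease they can show.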

Other observations

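Among the other neuropeptide precursor genes, 3 besides *Nms*, *Cck* and *Nmu* were higher in NCPs after level adjustment, and they were picked out after their values were seen. *Ucn2*, which encodes the stress peptide urocortin 2, was at 6.74, 6.78 and 7.04 on NCP arrays 1, 2 and 3, against a mean of 5.55 in total embryo (log2 fold change 1.30, and 0.76 after level adjustment). *Nppc* (C-type natriuretic peptide) and *Adm* (adrenomedullin, a vasodilator) were at 0.69 and 0.62 after level adjustment. *Ucn2*, *Nppc* and *Adm* passed the 95th percentile of olfactory and vomeronasal receptors on 1, 1 and 0 of the 3 NCP arrays. On the 7 total embryo arrays they passed it on 5, 7 and 2. The 4 that were lower after level adjustment were *Gnrh1* (-0.85), *Crh* (-0.84), *Ghrh* (-0.77) and *Ucn* (-0.58), of which the first 3 encode releasing hormones of the hypothalamus. Of these, *Crh* was higher before the adjustment (1.08), and its NCP mean lay at the 3.70 percentile of olfactory and vomeronasal receptor genes.

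High values on NCP array 3 were also seen for *Oxt* (oxytocin), at 7.08, 6.24 and 8.01 on NCP arrays 1, 2 and 3 against a mean of 6.97 in total embryo, and for *Pyy* (peptide YY), at 6.95, 6.22 and 7.93 against 6.89. Neither passed the test between the groups (log2 fold changes 0.14 and 0.14, adjusted p = 0.665 and 0.658 from limma).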
